A study of Mus musculus with 35 samples.

Results

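The Krüppel-like factor genes Klf2, Klf3, Klf4, Klf6, Klf7, Klf10 and Klf13 were followed across 35 microarrays of flow-sorted immune cells from male C57BL/6J mice, 8 weeks old. These 7 genes were chosen by symbol from the 18193 genes of the table, and 23 of its 34945 probe sets with 1 gene symbol carried their names. SatM, a marrow monocyte type linked to fibrosis in the labels, had 2 arrays, as did the inflammatory monocytes of the marrow. SMP, labelled as the progenitor of SatM, and cMoP, the common monocyte progenitor, had 4 bone marrow arrays each, 2 of them titled WT. The bone marrow progenitors MDP (monocyte/macrophage and dendritic cell) and GMP (granulocyte and monocyte) had 1 array each. Neutrophils, eosinophils and basophils of the spleen had 2 arrays each. A tissue panel of 15 single arrays held M2-like tissue-resident macrophages (spleen, bone marrow), SatM (spleen, blood, lung, bone marrow), cells dull for the sort markers Msr1 and Ceacam1 (lung, bone marrow), 2 lung macrophage sorts titled MP and F480 posi, other Ly6C-negative cells (spleen, blood) and cells negative for both sort markers (spleen, blood, bone marrow). The lung sorts were titled BAL. No mutation or treatment of the mice is named in the labels, and all cells passed through antibody staining and cell sorting. Nothing says that arrays of a type came from separate mice, so p-values measure only the spread between these arrays, which may be technical.

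Krüppel-like factors are zinc finger proteins that bind CACCC and GC-rich boxes in DNA. Klf2, Klf4, Klf6 and Klf7 belong to the branch that can recruit acetyltransferases, Klf3 to the branch that binds the corepressor CtBP, and Klf10 and Klf13 to the branch that binds the corepressor Sin3a. In mice Klf4 is needed for monocyte formation, Klf2 holds lymphocytes and myeloid cells in a resting state and controls their traffic, and Klf10 was first described as a gene induced by TGF-beta. Klf2 is a known target of MEF2 factors, which act downstream of the kinase ERK5. All 7 share the same type of DNA-binding domain, so their balance, and not only the level of each, is thought to shape their effect.

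Promoters are shown for Klf2, Klf4 and Klf7, since the comparison of lung with bone marrow turns on Klf2 and that of the SMP and cMoP progenitors on Klf4 and Klf7. They are the 250 bases before each gene's start in RefSeq (build GRCm38.p6), printed 5′ to 3′ on the gene's strand. Capitals mark the KLF box (CACCC or GGGTG on the printed strand) and the MEF2 box, which was searched for after the letters had been seen. The Klf2 promoter lies at chr8:72318812-72319061 on the plus strand, the Klf4 promoter at chr4:55532476-55532725 on the minus strand and the Klf7 promoter at chr1:64121390-64121639 on the minus strand.
Klf2 promoter: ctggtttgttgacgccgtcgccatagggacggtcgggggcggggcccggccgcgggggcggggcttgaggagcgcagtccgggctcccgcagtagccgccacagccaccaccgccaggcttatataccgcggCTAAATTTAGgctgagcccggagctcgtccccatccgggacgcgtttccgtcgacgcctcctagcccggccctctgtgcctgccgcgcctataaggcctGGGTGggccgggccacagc
Klf4 promoter: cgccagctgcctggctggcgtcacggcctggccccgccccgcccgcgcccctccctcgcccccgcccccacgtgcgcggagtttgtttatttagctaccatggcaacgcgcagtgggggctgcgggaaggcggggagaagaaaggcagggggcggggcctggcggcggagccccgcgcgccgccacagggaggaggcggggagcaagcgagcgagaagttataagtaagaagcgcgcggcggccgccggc
Klf7 promoter: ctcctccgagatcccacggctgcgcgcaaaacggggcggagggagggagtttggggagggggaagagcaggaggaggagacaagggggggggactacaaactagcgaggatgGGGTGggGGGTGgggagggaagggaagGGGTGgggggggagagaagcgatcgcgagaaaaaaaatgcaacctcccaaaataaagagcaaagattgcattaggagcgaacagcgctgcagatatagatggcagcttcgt
Klf2 held 1 MEF2 box, beginning 118 bases before the start, and 1 KLF box. Klf7 held 3 KLF boxes, and Klf4 held neither motif in this window. KLF boxes were present in 52.0% of all 32851 promoters of this length and MEF2 boxes in 2.92%, while 6.92% held at least 3 KLF boxes. Among the other members Klf3 held 5 KLF boxes, Klf13 held 1 and Klf6 held 0, and only Klf2 of the 6 promoters searched held a MEF2 box. The 6 promoters had 59.2% to 78.4% G and C, above the median of 52.4% over all promoters. A match describes these letters and is not a binding site.

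All levels are on the log2 scale, for 1 probe set per gene, and the lowest value of the table, 2.30, is called the floor. Sort labels were set against marker genes before the members were compared. SMP carried basophil genes: the mean over Mcpt8, Fcer1a, Ms4a2, Cpa3, Cd200r3 and Gata2 was 13.04 to 13.71 on the 4 SMP arrays, against 3.20 to 3.55 on the 4 cMoP arrays, and 13.74 to 13.85 on the basophil arrays. The 3 panel arrays negative for both sort markers go against their monocyte label, since the mean of 5 NK cell genes was 10.46 to 11.80 and that of 6 classical monocyte genes was 3.85 to 4.99. The bone marrow marker-dull array had means of 8.69 over eosinophil genes and 10.75 over neutrophil genes. The lung SatM array had a nonclassical monocyte mean of 7.11, against 10.03 to 11.10 on the SatM arrays of the other panel tissues. Fewer cells of a type and less RNA per cell cannot be told apart in such bulk samples.

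Each member had its own order over the 9 cell types outside the panel. Klf4 and Klf2 spanned the widest ranges of type means, 9.49 and 7.85 on the log2 scale. Klf6 (5.0), Klf7 (4.34), Klf3 (3.21), Klf10 (2.43) and Klf13 (2.29) spanned less, and the pooled spread between arrays of 1 type was 0.27 to 0.84. With the brightest probe set of each gene, SatM had the highest mean for Klf2, Klf4 and Klf10, inflammatory monocytes for Klf13, neutrophils for Klf3, and SMP for Klf6 and Klf7. For Klf13 the means of inflammatory monocytes and SatM differed by less than the pooled spread (0.21 against an SD of 0.29), as did those of neutrophils and SatM for Klf3 (0.04 against 0.32) and of SMP and SatM for Klf6 (0.18 against 0.39). The top types of Klf3 and Klf13 also depended on the probe set. On every other Klf3 probe set the SatM mean lay above that of neutrophils. The other Klf13 probe set tested had 9.82 and 10.17 in SatM, above 7.43 and 8.13 in inflammatory monocytes. Its SMP mean was above that of inflammatory monocytes too. With the brightest probe sets, the lowest means were those of GMP for Klf2, Klf6 and Klf10, MDP for Klf3, neutrophils for Klf4, cMoP for Klf7 and eosinophils for Klf13. The gap to the next type was below the pooled spread for Klf3 (0.12 against 0.32), Klf4 (0.82 against 0.84) and Klf7 (0.13 against 0.69). The same held for Klf10 (0.15 against 0.27) and Klf13 (0.12 against 0.29).

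**Figure D1:**
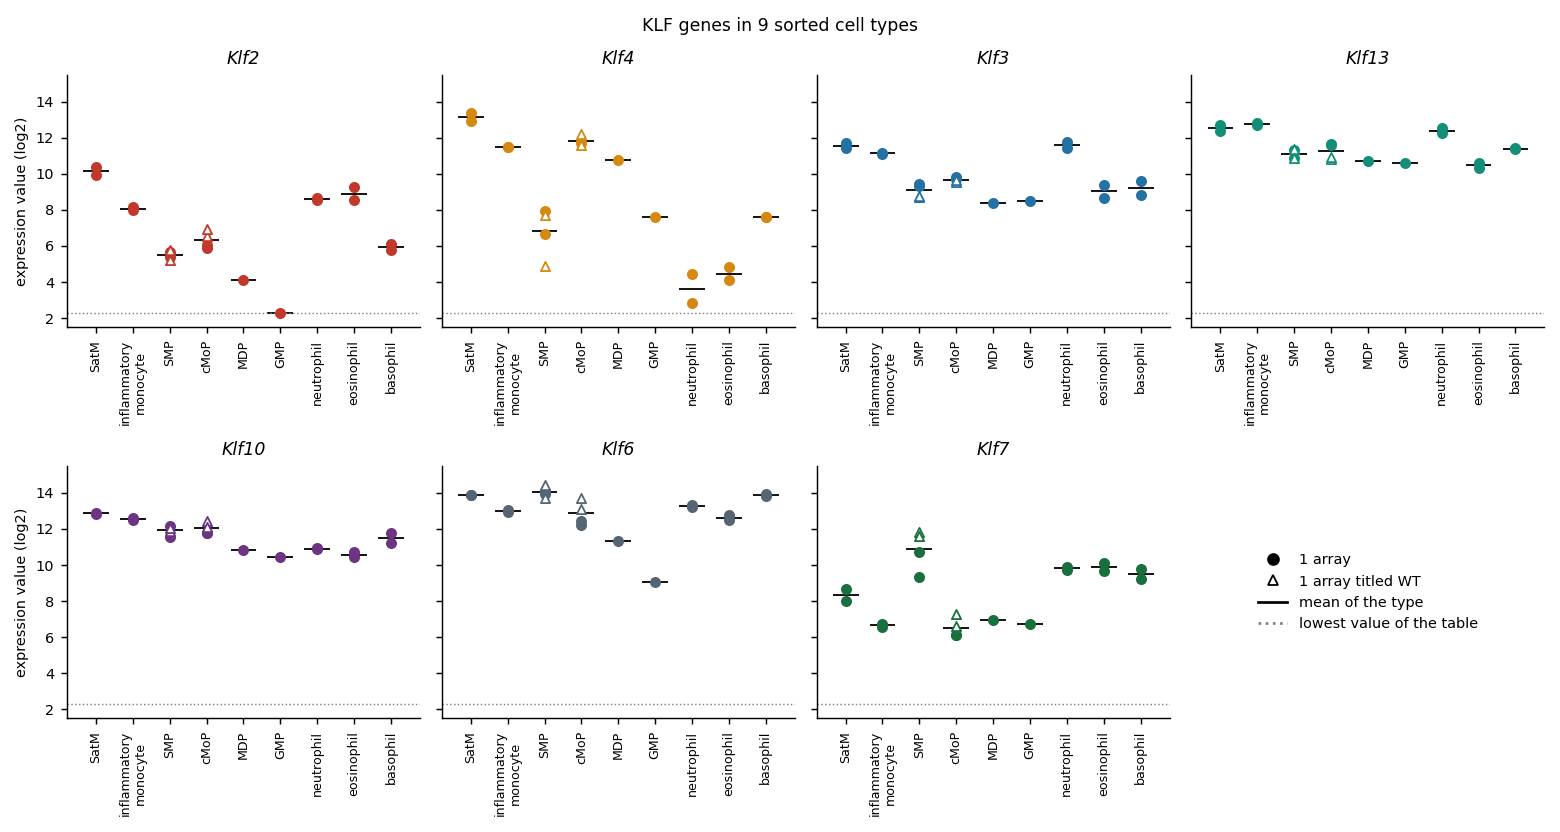
Log2 expression values of the 7 genes (1 panel each, vertical axis) in 9 sorted cell types (horizontal axis), with filled circles for single arrays, open triangles for arrays titled WT, black bars for type means and a dotted line at the floor of 2.30. Klf4 lies at 4.89 to 7.95 in SMP, below all 4 cMoP arrays at 11.58 to 12.19, while Klf7 lies at 9.32 to 11.86 in SMP, above all 4 cMoP arrays.

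The step from SMP to SatM asked how the mature monocyte differs from its labelled progenitor. Most KLF genes were higher in SatM. Klf2 measured 9.92 and 10.39 in SatM, against 5.39, 5.69, 5.77 and 5.23 in SMP. Klf4, which drives monocyte differentiation in mice, measured 12.90 and 13.35 in SatM, against 6.69, 7.95, 7.70 and 4.89 in SMP. The arrays of SatM and SMP did not overlap for either gene. The fitted log2 difference, which allows for a shift of the WT-titled arrays, was 4.81 ± 0.33 (SE) for Klf2 (28.1-fold, adjusted p = 2.30e-07) and 6.10 ± 0.73 for Klf4 (68.5-fold, adjusted p = 3.27e-05).

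Klf3, a partner of CtBP known from red blood cell and B cell development, measured 11.68 and 11.41 in SatM, against 9.46, 9.35, 8.74 and 8.75 in SMP. Klf13, known for activating Ccl5 in T cells, measured 12.72 and 12.38 in SatM, against 11.31, 10.85, 10.87 and 11.40 in SMP. With their brightest probe sets both genes were higher in SatM on every array, by 2.26 ± 0.26 for Klf3 (adjusted p = 2.33e-05) and 1.27 ± 0.24 for Klf13 (adjusted p = 0.00138). On the other Klf13 probe set tested, SatM (9.82 to 10.17) lay within the SMP range (6.29 to 10.72). A dim Klf3 probe set overlapped too, at 5.56 to 6.44 against 3.16 to 8.11. Klf10 was higher in SatM by 1.09 ± 0.22 (adjusted p = 0.0021), a call lost in 4 of 14 alternatives, at 0.93 to 1.0. Klf7 went the other way, with 8.01 and 8.68 in SatM against 10.70, 9.32, 11.86 and 11.59 in SMP. Its log2 difference was -1.89 ± 0.41 (adjusted p = 0.00326; adjusted p = 0.111 in a fit of SatM and SMP alone). Klf6 differed by 0.09 (95% confidence interval -0.54 to 0.73, adjusted p = 0.886). A gene was called at an adjusted p under 0.05 and a log2 difference of at least 1. By that rule 6 of 7 members were called, 5 higher and 1 lower, where 26.8% of all 12077 genes tested were called. The members' median difference was 1.27 and that of all genes -0.03.

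Klf2, Klf3 and Klf13 were also higher in inflammatory monocytes than in cMoP, their progenitor stage in the bone marrow. Klf2 measured 7.98 and 8.15 in inflammatory monocytes, against 6.05, 5.90, 6.53 and 6.92 in cMoP. Klf13 measured 12.72 and 12.79 in inflammatory monocytes, against 11.57, 11.65, 10.82 and 10.91 in cMoP. Inflammatory monocytes lay above all cMoP arrays for both genes with these probe sets. On the other Klf13 probe set tested they lay within the cMoP range, at 7.43 to 8.13 against 6.27 to 8.90. The log2 differences were 1.90 ± 0.33 for Klf2 (adjusted p = 0.00161), 1.25 ± 0.26 for Klf3 (adjusted p = 0.00515) and 1.34 ± 0.24 for Klf13 (adjusted p = 0.00193). Klf10 differed by 0.70 (adjusted p = 0.0472), under the required size. Klf4 measured 11.48 on both inflammatory monocyte arrays and 11.58 to 12.19 in cMoP, and its log2 difference of -0.54 was not called (interval -2.13 to 1.05, adjusted p = 0.759). Klf6 (0.39) and Klf7 (0.76) were not called either. In all, 3 of 7 members were called, all higher, against 14.9% of all genes.

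The 2 steps were then set against each other in an interaction test, as SatM minus SMP less inflammatory monocyte minus cMoP. Klf4 differed by 6.64 ± 0.96 between the steps (adjusted p = 0.000285), with 6.10 in the SatM step and -0.54 in the inflammatory monocyte step. Klf2 differed by 2.91 ± 0.44 (adjusted p = 0.000381), rising in both steps and further in the SatM step. Klf7 differed by -2.65 ± 0.53 (adjusted p = 0.00305), with -1.89 in the SatM step and 0.76 in the other. These 3 calls were kept in all 20 alternatives run, single probe sets aside. Klf3 differed by 1.01 ± 0.34 (adjusted p = 0.0496), a call lost in 16 of 20 alternatives. Its difference ran from 0.77 to 1.86 over these 20. Klf6 (-0.30), Klf10 (0.39) and Klf13 (-0.07) showed no called difference between the steps, with an interval of -0.76 to 0.62 for Klf13. Thus 4 of 7 members were called, where 22.3% of all genes were. Basophil genes moved with the SatM step, at 2.50 to 2.81 (list mean) in SatM against 13.04 to 13.71 in SMP, and their part in these differences was not tested.

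**Figure D2:**
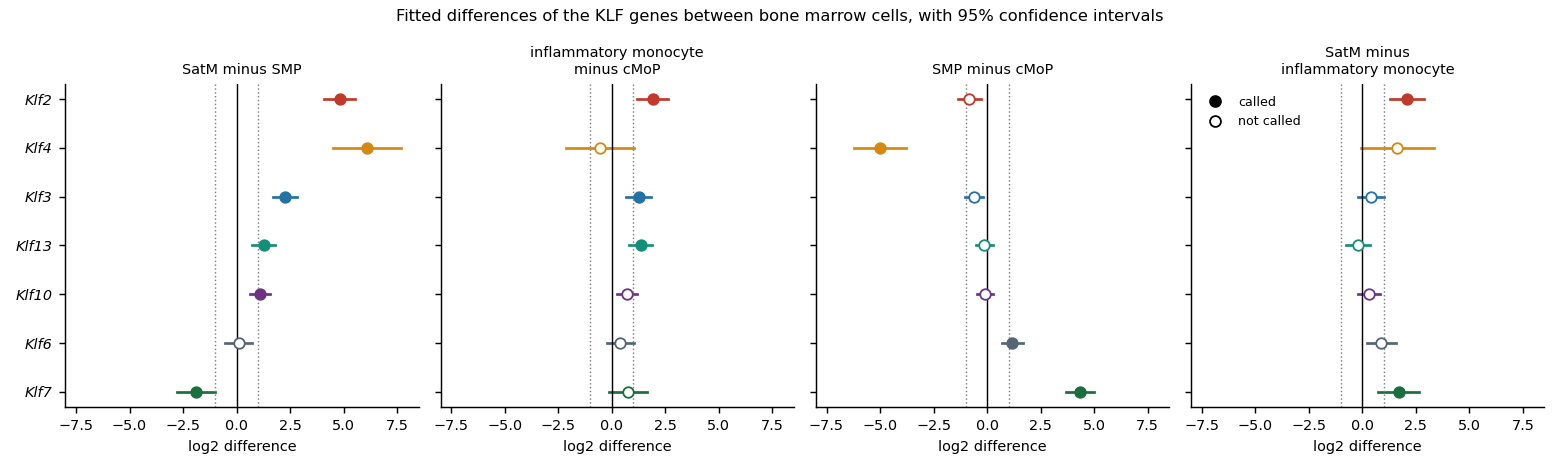
Fitted log2 differences (horizontal axis) of the 7 genes (rows) in 4 comparisons of bone marrow cells, with lines for 95% confidence intervals, filled points for called genes, open points for genes not called and dotted lines at -1 and 1. Klf4 stands at 6.10 in SatM minus SMP and at -0.54 in inflammatory monocyte minus cMoP, while Klf2, Klf3 and Klf13 are above 1 in both.

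Between the progenitors, SMP held far less Klf4 and far more Klf7 than cMoP. Klf4 measured 6.69, 7.95, 7.70 and 4.89 in SMP, against 11.76, 11.69, 12.19 and 11.58 in cMoP. Klf7, known for axon growth in neurons and for effects on blood progenitors, measured 10.70, 9.32, 11.86 and 11.59 in SMP, against 6.12, 6.12, 7.28 and 6.60 in cMoP. The 2 progenitors were apart on every array for both genes. Klf4 was 31.9-fold lower in SMP (log2 difference -5.00 ± 0.55, adjusted p = 1.21e-05), and -5.59 (adjusted p = 0.0546) among the 4 WT-titled arrays alone. Klf7 was 20.2-fold higher in SMP (4.34 ± 0.31, adjusted p = 2.25e-07), and its other 3 probe sets gave 3.64 to 5.06.

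Klf6, an injury-response factor that promotes inflammatory gene expression in macrophages, measured 14.12, 13.95, 14.45 and 13.69 in SMP, against 12.46, 12.23, 13.70 and 13.11 in cMoP. The lowest SMP array and the highest cMoP array, both titled WT, were nearly level. The log2 difference was 1.18 ± 0.22 (adjusted p = 0.000777), 2.03 where its probe sets were averaged, and 0.67 (adjusted p = 0.321) among the WT-titled arrays alone. Klf2 (-0.83, adjusted p = 0.0169) and Klf3 (-0.60, adjusted p = 0.0258) lay under the required size. Klf10 (-0.10) and Klf13 (-0.14) were not called, with intervals of -0.47 to 0.26 and -0.53 to 0.26. The other Klf13 probe set tested was called as higher in SMP (1.76, adjusted p = 0.0135), and the average of its probe sets gave 0.54, which was not called. In all, 3 of 7 members were called, 2 higher and 1 lower, where 35.5% of all genes were called, so the share of members was near the background. The mean of 16 immediate-early genes was 10.38 to 11.93 in SMP, against 7.37 to 10.58 in cMoP, and 12 of the 16 were higher and 2 lower in SMP (median difference 2.11, all genes -0.09). Their part in the Klf6 difference was not tested.

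Mature SatM and inflammatory monocytes were compared next. Klf2 was 4.25-fold higher in SatM, at 9.92 and 10.39 against 7.98 and 8.15 in inflammatory monocytes, a difference of 2.09 ± 0.36 on the log2 scale (adjusted p = 0.00219). The panel's bone marrow SatM array had a Klf2 value of 8.15, level with the higher inflammatory monocyte array, and with it added the difference was 1.42 (adjusted p = 0.115). That array also had an immediate-early mean of 11.43 and a neutrophil gene mean of 11.33, against 9.08 to 9.15 and 9.10 to 9.65 on the other bone marrow SatM arrays. Klf7 measured 8.01 and 8.68 in SatM, against 6.59 and 6.72 in inflammatory monocytes (1.69 ± 0.44, adjusted p = 0.0272). The mean of the eosinophil genes was 6.06 to 7.02 in SatM outside the panel, against 2.41 to 2.47 in inflammatory monocytes. That of the neutrophil genes was 9.10 to 9.65, against 7.59 to 8.40. The part of these genes in the Klf2 and Klf7 differences was not tested. The Klf7 call was lost without a filter on dim genes (adjusted p = 0.0536), without the term for WT-titled arrays (0.179), and without either inflammatory monocyte array (0.154 and 0.12) or the second SatM array (0.18).

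Klf4 was higher on both SatM arrays, at 12.90 and 13.35 against 11.48 and 11.48 in inflammatory monocytes. The panel's bone marrow SatM array measured 11.66. The Klf4 log2 difference of 1.64 was not called (interval -0.06 to 3.34, adjusted p = 0.234) in the fit over 20 arrays, where its pooled spread was 0.84. It was called in a fit of the 4 arrays outside the panel alone (adjusted p = 0.0238), and it ran from 1.16 to 1.87 over the alternatives. Klf6 (0.88, adjusted p = 0.0998) and Klf3 (0.42, adjusted p = 0.441) were not called with their brightest probe sets. Where each gene's probe sets were averaged both were called, at 1.28 for Klf6 (adjusted p = 0.0333) and 1.89 for Klf3 (adjusted p = 0.00109). By themselves 2 of 5 Klf6 probe sets (1.18 and 1.62) and 2 of 7 Klf3 probe sets (1.88 and 2.93) were called, and the 6 other Klf3 probe sets gave 1.29 to 2.93. Klf10 (0.29) and Klf13 (-0.21) had intervals of -0.22 to 0.80 and -0.77 to 0.36, but the other Klf13 probe set tested gave 2.22 (adjusted p = 0.0703) and the average of its probe sets gave 0.66 (neither was called). Both called members, of 7, were higher in SatM, beside a background of 9.34%.

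The single arrays of MDP and GMP placed the earlier progenitors below cMoP for most members. Klf2 measured 4.10 in MDP and lay at the floor in GMP, against 5.90 to 6.92 in cMoP. Klf6 measured 11.34 in MDP and 9.05 in GMP, against 12.23 to 13.70 in cMoP. Klf4 measured 10.76 in MDP and 7.58 in GMP, against 11.58 to 12.19 in cMoP. MDP and GMP were thus below all cMoP arrays for Klf2, Klf4 and Klf6, with no test for 1 array. Klf3 (8.38 and 8.51), Klf10 (10.83 and 10.43) and Klf13 (10.69 and 10.59) lay below the lowest cMoP array too, and Klf7 (6.95 and 6.73) lay within the cMoP range. The immediate-early mean was 6.19 in MDP and 5.65 in GMP, the lowest of the 35 arrays, and its part in these levels was not tested.

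Monocytes of the marrow (SatM and inflammatory monocytes) differed from granulocytes of the spleen in most members, although cell type and tissue cannot be told apart here. Klf4 measured 11.48 to 13.35 on the 4 monocyte arrays and 2.82 to 7.60 on the 6 granulocyte arrays, with no overlap. It was 135-fold higher in monocytes (log2 difference 7.07 ± 0.51, adjusted p = 2.05e-07). Klf10 was higher by 1.72 (adjusted p = 1.45e-06), Klf3 by 1.39 (4.11e-05), Klf2 by 1.30 (0.000521) and Klf13 by 1.23 (6.00e-05). Only Klf10 of these 4 had no overlap between arrays, at 12.50 to 12.89 in monocytes and 10.42 to 11.77 in granulocytes. Klf7 was lower in monocytes (-2.24 ± 0.28, adjusted p = 3.13e-05), at 6.59 to 8.68 against 9.25 to 10.13, apart with this probe set. On every other Klf7 probe set the eosinophil arrays overlapped the monocytes. The brightest of those had 6.95 to 7.59 in eosinophils and 7.29 to 7.57 in inflammatory monocytes. Klf6 differed by 0.17 with its brightest probe set (interval -0.26 to 0.61, adjusted p = 0.522), while 2 of its 5 probe sets were called as higher in monocytes (1.35, adjusted p = 0.00153, and 1.57, adjusted p = 0.0177). Here 6 of 7 members were called, beside 31.3% of all genes.

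The 3 granulocyte types were compared with each other in 3 comparisons that share their arrays. The mean of 6 neutrophil genes was 14.04 to 14.16 in neutrophils, 9.66 to 9.81 in eosinophils and 11.38 to 12.05 in basophils, and its part in the differences among granulocytes was not tested. Neutrophils measured 11.75 and 11.42 for Klf3, against 9.40 and 8.66 in eosinophils and 9.59 and 8.84 in basophils. For Klf13, neutrophils had 12.27 and 12.51, against 10.62 and 10.32 in eosinophils and 11.41 and 11.37 in basophils. Neutrophils were the highest granulocyte on every array for both genes, by 2.46 ± 0.24 for Klf3 (adjusted p = 3.87e-06) and 1.46 ± 0.22 for Klf13 (adjusted p = 0.000169). Klf2 was higher in neutrophils than in the mean of eosinophils and basophils by 1.17 (adjusted p = 0.00716). Its mean in neutrophils, 8.59, lay between 8.89 in eosinophils and 5.95 in basophils. This Klf2 call was lost without the first eosinophil array (0.99) or the second neutrophil array. Klf4 was lower in neutrophils (log2 difference -2.39, adjusted p = 0.0109), and -1.58 (adjusted p = 0.175) without the first neutrophil array. In neutrophils 4 of 7 members were called, beside 41% of all genes, the same order as the background.

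Eosinophils had the highest Klf2 of the granulocytes on average, at 8.52 and 9.25, against 6.13 and 5.77 in basophils and 8.54 and 8.65 in neutrophils. Their first array lay just below the neutrophils. Klf2 was higher in eosinophils than in the mean of the other granulocytes (1.62 ± 0.31, adjusted p = 0.00144), while Klf3 (-1.37, adjusted p = 0.000825) and Klf13 (-1.42, adjusted p = 0.000376) were lower. One dim Klf3 probe set gave 0.55 (adjusted p = 0.788) in this comparison. The counts were 1 higher and 2 lower of 7, beside a background of 29.7%. Basophils had 7.60 and 7.58 for Klf4, against 4.11 and 4.81 in eosinophils and 2.82 and 4.44 in neutrophils. Klf4 was thus higher in basophils on every array (3.55 ± 0.68, adjusted p = 0.00149). Against the mean of eosinophils and neutrophils, Klf2 was lower (-2.79 ± 0.31, adjusted p = 2.29e-05) and so was Klf3 (-1.09, adjusted p = 0.00397). The Klf3 mean of basophils, 9.22, was below that of neutrophils (11.59) but not below that of eosinophils (9.03). The Klf3 call was lost with the mean of its probe sets (-0.86) and without the second basophil array (-0.72) or the first eosinophil array (-0.91). In basophils 3 of 7 members were called, beside 26.5% of all genes. With the brightest probe sets, Klf4 values of basophils (7.58 and 7.60) lay within the SMP range, and so did those of Klf6. This depended on the probe set. The other Klf4 probe set had 7.02 to 7.55 in basophils, above 2.80 to 6.13 in SMP. The second brightest Klf6 probe set had 12.80 to 12.96 in basophils, below 13.07 to 13.45 in SMP. A dimmer Klf6 probe set overlapped, at 8.48 to 8.58 against 8.56 to 10.40.

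Across the tissues of the panel, Klf2 was low in every lung sort. Klf2 measured 3.92 in MP cells, 3.90 in F480 posi cells, 3.61 in SatM and 3.45 in marker-dull cells of the lung. The 11 other panel arrays measured 8.15 to 10.22, so lung and other tissues did not overlap. In SatM, lung Klf2 was 23.3-fold lower than in bone marrow (8.15), 38.3-fold lower than in spleen (8.87) and 97.7-fold lower than in blood (10.22). Marker-dull cells showed the same direction, with 3.45 in lung and 8.76 in bone marrow, 39.6-fold lower. Lung minus bone marrow was -5.16 ± 0.35 (interval -5.98 to -4.35, adjusted p = 0.000472) in a fit with cell type and tissue, and -5.51 to -5.05 when any 1 array was left out.

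Klf2 was the member called, of 7, between lung and bone marrow, where 9.3% of all 11734 genes were called. Klf13 (-0.96, adjusted p = 0.0406) fell just short of the required size. Klf3 (0.58), Klf4 (0.24), Klf6 (-0.05), Klf7 (-1.06) and Klf10 (0.44) were not called. Within SatM all 7 members were lower in lung than in each other tissue, and for the 6 besides Klf2 the differences were -0.21 to -1.15. Marker-dull cells gave 1.74 for Klf3, 2.30 for Klf4 and 1.54 for Klf10, the opposite direction, and without the lung SatM array, when marker-dull cells alone link the tissues, the fitted differences of Klf3 (1.74, adjusted p = 0.025) and Klf10 (1.54, adjusted p = 0.044) were called as higher. Cell identity moved with tissue in these sorts, as the nonclassical monocyte and granulocyte gene means above show. The mean of the alveolar macrophage genes was 12.11 in MP and 8.96 in F480 posi cells, against 4.05 to 7.24 on the bone marrow panel arrays. It was lower in the sorts present in both tissues, at 5.28 to 6.23 on the marker-dull arrays and 6.46 to 8.16 on the panel SatM arrays of all tissues. The part of these genes in the Klf2 difference was not tested.

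**Figure D3:**
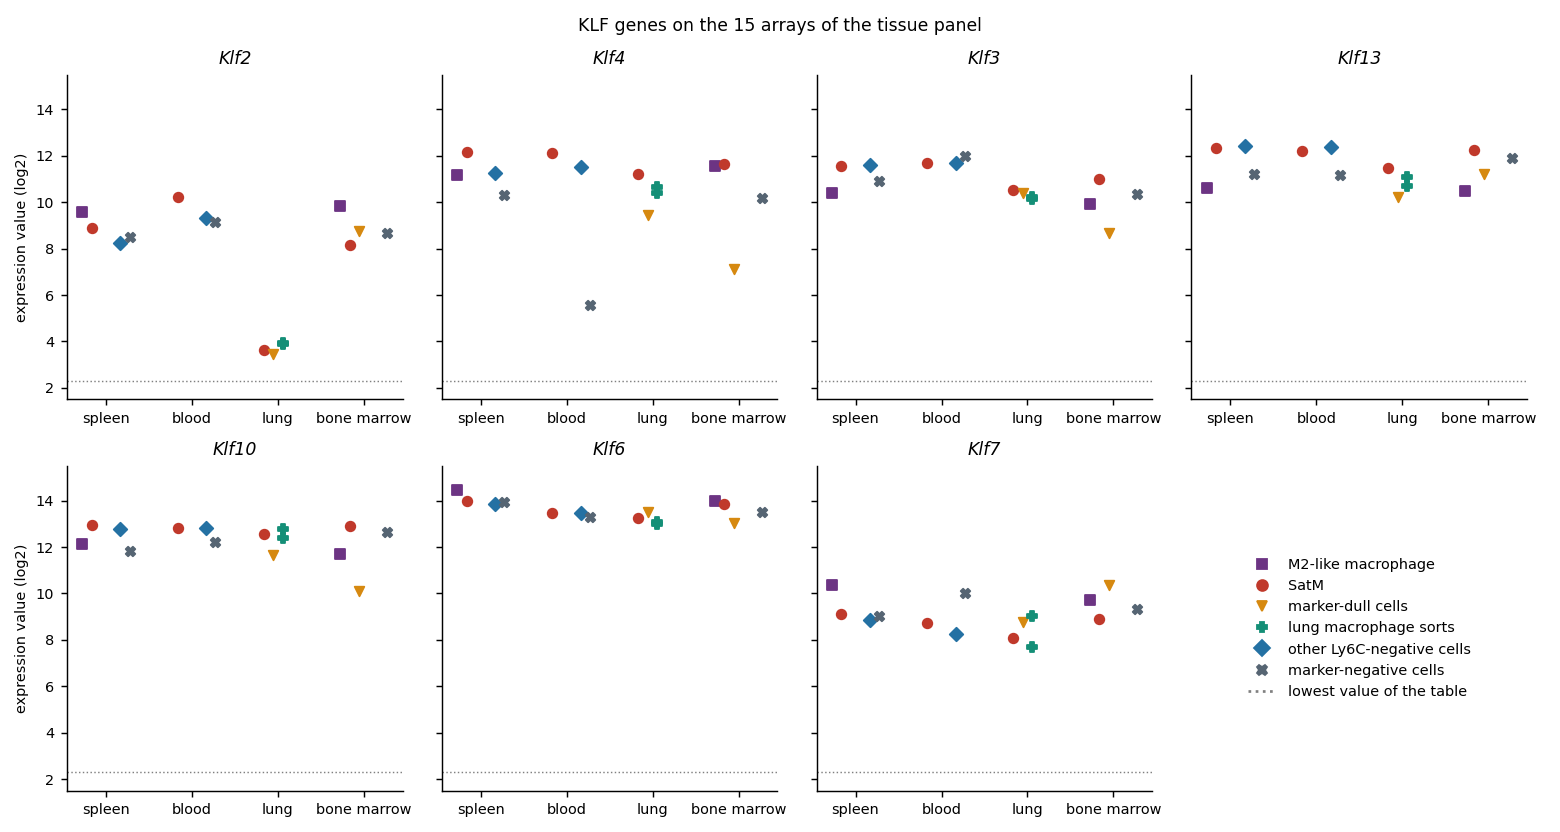
Log2 expression values of the 7 genes (1 panel each, vertical axis) on the 15 single arrays of the tissue panel by tissue (horizontal axis), with symbols for the sorted cell type and a dotted line at the floor. Klf2 lies at 3.45 to 3.92 on the 4 lung arrays and at 8.15 or above elsewhere, and the blood array negative for both sort markers has a Klf4 value of 5.59.

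No member was called between spleen or blood and bone marrow. Between spleen and bone marrow 0 of 7 members were called, beside 0.0937% of all genes (11, and 5 to 316 with any 1 array left out), and the members' differences ran from -0.17 for Klf13 to 0.77 for Klf3. The lowest unadjusted p among them was that of Klf6 (log2 difference 0.43, unadjusted p = 0.05, adjusted p = 0.347). Between blood and bone marrow 0 of 7 were called too, beside 0.102% of all genes (12, and 3 to 464 with any 1 array left out). Klf3 (1.27, unadjusted p = 0.0156, adjusted p = 0.193) and Klf2 (1.15, unadjusted p = 0.00791, adjusted p = 0.152) had the lowest p-values of the 7 members there, with intervals of 0.31 to 2.22 for Klf3 and 0.40 to 1.91 for Klf2. Klf4 had a wide interval around -1.28 (-3.97 to 1.41). For Klf3, the 3 blood arrays measured 11.68 or more, above all 4 bone marrow panel arrays at 8.67 to 11.01. Those include M2-like and marker-dull cells, which have no blood array. Bone marrow SatM outside the panel measured 11.68 and 11.41 for Klf3, beside 11.68 in blood SatM. For Klf2 the same arrays had 9.92 and 10.39, beside 10.22 in blood SatM.

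M2-like macrophages had less Klf13 than SatM, with 10.61 in spleen and 10.47 in bone marrow, against 12.33 and 12.24 in SatM of the same tissues. The log2 difference was -1.80 ± 0.23 (adjusted p = 0.00334). Klf13 was the member called, of 7, in this comparison, beside 8.31% of all genes. The M2-like arrays had a macrophage gene mean of 12.90 to 13.12, against 4.49 to 7.68 on the panel SatM arrays. They also had B cell gene means of 7.46 to 8.08 and T cell gene means of 4.79 to 7.09. Those of panel SatM were 2.52 to 8.24 and 2.45 to 5.61. The part of other cells in the Klf13 difference was not tested. Within the panel Klf2 was higher in M2-like macrophages of both tissues, at 9.57 and 9.85 against 8.87 and 8.15 in SatM. Its fitted difference of 0.98 was not called (adjusted p = 0.137). The bone marrow SatM arrays outside the panel measured 9.92 and 10.39 for Klf2, above the M2-like bone marrow array. Klf7 (1.05, adjusted p = 0.245) was not called. Between SatM and the marker-negative cells 0 of 7 members were called, beside 10.2% of all genes. Klf13 (0.83, adjusted p = 0.0326) passed the p but not the size, and its other probe set tested was called (2.01, adjusted p = 0.0418), as were 2 of 7 Klf3 probe sets (1.38 and 1.48). Klf4 differed by 2.93 (interval 0.47 to 5.40, unadjusted p = 0.0255, adjusted p = 0.127), with 12.16, 12.10 and 11.66 in SatM of spleen, blood and bone marrow, against 10.31, 5.59 and 10.20 in marker-negative cells of the same tissues.

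Klf6 was set beside the immediate-early genes over all arrays. The 3 genes with the most similar pattern to Klf6, over 24 points (9 cell type means and 15 panel arrays) and 12869 genes, were Nfkbia (r = 0.873), Ier5 (0.87) and Jund (0.86). Nfkbia encodes an inhibitor of NF-kappaB, and Ier5 and Jund are stress and AP-1 genes. Jund is also on the immediate-early list. These points share arrays and sort handling, so the values of r are a description. The immediate-early mean was 11.42 to 11.85 on spleen panel arrays, 8.23 to 8.98 on blood arrays, 8.06 to 9.92 on lung arrays and 9.50 to 11.43 on bone marrow arrays. Klf6 measured 13.87 to 14.45 on the spleen arrays, 13.28 to 13.46 on the blood arrays, at most 13.53 on the lung arrays and 13.04 to 13.97 on the bone marrow arrays. Klf10, also an early response gene, measured 10.83 in MDP and 10.43 in GMP, the arrays with the lowest immediate-early means, and 10.11, its lowest value, on the bone marrow marker-dull array at a mean of 9.50.

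**Figure D4:**
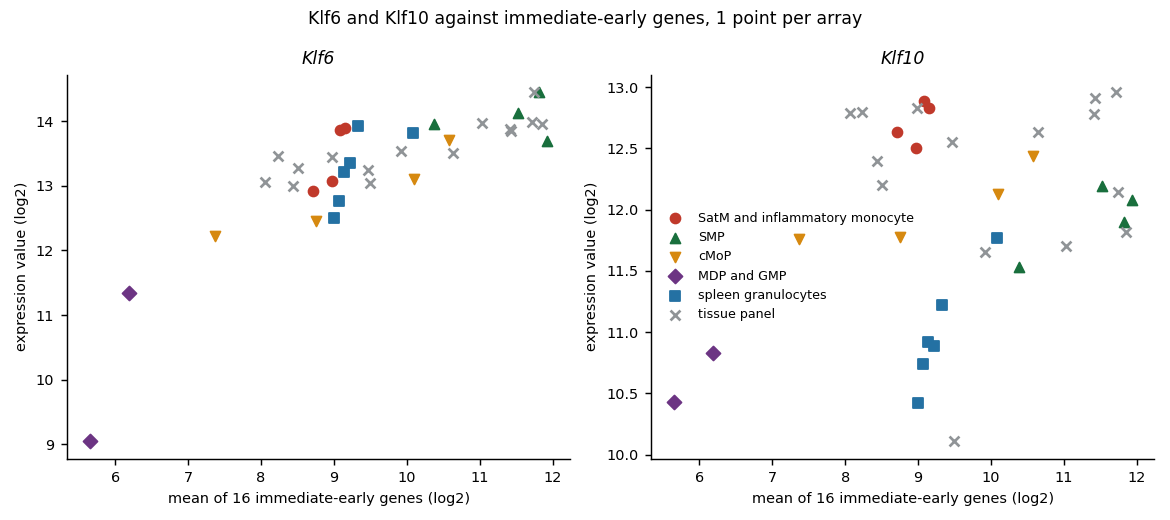
Log2 expression value of Klf6 (left) and Klf10 (right) on the vertical axis against the mean log2 value of 16 immediate-early genes on the horizontal axis, with 1 point per array and symbols for the sorted cells. For Klf6 the GMP and MDP arrays, at 9.05 and 11.34, stand at the low end of both axes, and SMP, at 13.69 to 14.45, at the high end of both.

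The patterns most like those of the other members were measured in the same way. Klf4 was closest to Ccdc88a (r = 0.931), Pld4 (0.913) and Cd2ap (0.888). Klf2 was closest to Lcp2 (0.872), Itch (0.871) and Kdm3a (0.851), of which Lcp2 encodes a signalling adaptor and Itch a ubiquitin ligase. For Klf3 they were Ncoa1 (0.899), Ythdf3 (0.896) and Irf2 (0.894). Klf10 was followed by Hip1 (0.897), B4galt5 (0.893) and Mef2a (0.887), Klf13 by Ppp1r15b (0.856), Lats2 (0.849) and Xdh (0.847), and Klf7 by Fam102a (0.839), Vasp (0.822) and Ddx5 (0.813). No member was among the 3 closest genes of another.

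Probe sets of 1 gene gave different sizes. The 5 Klf6 probe sets gave 1.18 to 2.88 in SMP minus cMoP, and the 4 Klf7 probe sets -3.09 to -1.89 in SatM minus SMP. The brightest Klf3 probe set gave the smallest difference of 7 in SatM minus SMP (2.26, against up to 5.24). Probe sets disagreed for Klf7 in eosinophils, where the brightest one gave 0.24 against basophils and neutrophils and the other 3 gave -0.96 to -2.76. For Klf6 the same comparison gave -0.78 to -3.55, with the brightest one at -0.94. For Klf13 the other probe set tested went against the brightest one in SMP minus cMoP (1.76 against -0.14) and in SatM minus inflammatory monocyte (2.22 against -0.21). The remaining Klf13 probe set lay at the floor on 33 of 35 arrays and was not tested.

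Of the other KLF and SP family genes, 10 of 19 listed were tested. Between SMP and cMoP 1 was higher in SMP and 0 lower (median 0.30, all genes -0.09), beside 35.5% of all genes called. That gene was Klf5, known from gut epithelium and granulocyte production, at 8.27 ± 0.90 (SD, n = 4) in SMP with all 4 cMoP arrays at the floor, so that its log2 difference of 5.97 is a lower bound (adjusted p = 1.60e-08). Klf5 was at the floor in inflammatory monocytes and in SatM outside the panel too and measured 8.47 in neutrophils, 5.88 in eosinophils and 8.35 in basophils. Klf15, a metabolic regulator, measured 6.74 and 6.81 in M2-like macrophages of spleen and bone marrow, with all 4 SatM arrays at the floor (adjusted p = 8.66e-07). Klf12 measured 6.48, 8.65 and 8.25 in marker-negative cells of spleen, blood and bone marrow, with all 4 panel SatM arrays at the floor (adjusted p = 0.000262).

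Genes upstream and downstream of the members gave mixed counts. On the route from ERK5 through MEF2 and FOXO factors to Klf2 and Klf4, 3 of 10 tested genes were higher and 1 lower in SatM than in SMP (median 0.33, all genes -0.03). Of all genes 26.8% were called in that comparison. Mef2c, a MEF2 factor, had a mean of 11.55 in the 2 SatM arrays (SD 0.20) and of 4.0 in the 4 SMP arrays (SD 2.38) (fitted difference 8.24, adjusted p = 0.00013), and Mef2a was higher by 2.42 (adjusted p = 2.03e-06). Foxo1 was lower (-3.02, adjusted p = 0.000714). Between SMP and cMoP the same list had 2 higher and 2 lower of 10 (median -0.07, all genes -0.09), beside 35.5% of all genes called. Mef2c measured 4.0 ± 2.38 in SMP and 10.51 ± 0.78 in cMoP (SD, n = 4 each), a fitted difference of -6.50 (adjusted p = 6.27e-05). Between lung and bone marrow the list had 0 higher and 1 lower of 10 (median -0.33, all genes 0.07), beside 9.3% of all genes called. The lower gene was Mef2d (-1.55, adjusted p = 0.0386).

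The TGF-beta route to Klf10 had 2 of 7 genes higher and 0 lower in SatM than in SMP (median 0.01, beside 26.8% of all genes called in this comparison), the signal transducer Smad3 (2.28, adjusted p = 0.0111) and the receptor gene Tgfbr1 (2.03, adjusted p = 0.0005). Among KLF partners, 2 of 12 tested were higher and 0 lower (median -0.03, a share below the same 26.8%), the Sin3 complex gene Sap30 (4.59, adjusted p = 0.000233) and the ubiquitin ligase gene Wwp1 (1.30, adjusted p = 0.0494). Of the trafficking and vessel genes reported downstream of Klf2, 3 of 6 were tested. In the same comparison 1 was higher and 1 lower (median -0.72), beside the same 26.8%. Thrombomodulin (Thbd) was higher in SatM (8.53, adjusted p = 2.52e-05) and Itgb7, an integrin subunit, was lower (-1.24, adjusted p = 0.000553). S1pr1, the sphingosine-1-phosphate receptor controlled by Klf2 in T cells, lay at the floor in bone marrow SatM, inflammatory monocytes, cMoP and all 4 lung sorts, and its highest value was 5.40, in the marker-negative cells of bone marrow. Macrophage genes reported downstream of KLF factors had 6 of 17 higher and 3 lower in SatM than in SMP (median 0.00), beside the same 26.8%. Among them were Il6 (-8.96, adjusted p = 4.83e-06), Bcl6 (7.35, adjusted p = 1.90e-08) and the lipid receptor gene Cd36 (7.34, adjusted p = 2.41e-07). Between lung and bone marrow, 2 of these 17 were higher and 0 lower (list median -0.13), beside 9.3% of all genes called. The higher genes were the mannose receptor gene Mrc1 (7.10, adjusted p = 0.0138) and Hif1a (1.15, adjusted p = 0.0206).

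Of the myeloid regulators, Irf8, needed for monocytes and dendritic cells, measured 3.84 in SMP and 11.55 in cMoP (-7.71, adjusted p = 2.44e-06), while Gata2, a basophil and mast cell factor, was higher in SMP (11.02, adjusted p = 2.86e-11). The list of 7 had 3 higher and 1 lower in SMP than in cMoP (median 0.35), beside 35.5% of all genes called. Irf8 measured 12.56 in MDP and 9.77 in GMP, and Gata2 measured 8.62 in MDP and 9.40 in GMP. The sorted cells behind the low Klf4 and high Klf7 values thus carried high Gata2, which is itself among the basophil markers named above. Whether any of these genes acts on the KLF genes was not tested.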

How the data were processed

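Total RNA of sorted cells was measured on 35 single-colour Affymetrix mouse arrays. The authors deposited 1 log2 value for each probe set and array, and the log base was inferred from the range (2.30 to 16.02). The background correction and normalization used by the authors are not given in the sources used here, and between 45.9% and 49.0% of probe sets on each array lay at the lowest value. Arrays have no read depth, so their number limits the precision.

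Of 45101 probe sets, 34945 had 1 gene symbol in the platform annotation, 932 had several, 9160 had none and 64 were controls. For each of 18193 genes the brightest probe set on average over all arrays was used. Groups came from the sample labels. Genes above the array median on at least 2 arrays were tested with limma 3.58.1 (lmFit and eBayes with a trend) in R 4.3.3, with Benjamini-Hochberg adjusted p-values over all genes tested. The first fit held 20 arrays, with cell type and a term for WT-titled arrays (10 residual degrees of freedom). The second held the 15 panel arrays, with cell type and tissue (6 residual degrees of freedom). The fits were tested on simulated data. Fitted differences with SMP or cMoP against other cells, and all panel differences, are not plain differences of means.

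The genes, lists and comparisons were chosen with earlier results of these data known. Named list genes were up to 3 called genes per list and comparison with the largest differences, and the 3 genes most like each member were named by Pearson's r. Alternatives changed the normalization, filter, probe set choice, trend, model terms and arrays. Deviations of same-numbered arrays correlated at -0.05 to 0.06 in the numbered marrow set, 0.10 to 0.16 among granulocytes and 0.23 between the WT-titled SMP and cMoP arrays. The labels name no shared mouse or day, so replicate numbers were not used to pair arrays.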

Additional observations from a re-analysis of the deposited data

Results flagged for a closer look

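Klf13 on the panel's lung SatM array measured 11.47, apart from the other SatM arrays of the panel at 12.20, 12.24 and 12.33. Its gap to the nearest array was large for its group of 4 by Dixon's test, and chance gives such a gap in about 1 in 20 of the 21 groups tested.

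Between the SatM and the inflammatory monocyte maturation steps the interaction test differed for 4 members, by 2.91 for Klf2, 1.01 for Klf3, 6.64 for Klf4 and -2.65 for Klf7 on the log2 scale. The Klf3 value was called in the fewest alternatives of these 4.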

How the results depend on the processing

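Of 98 results for the members, 36 were called, and 25 of these calls were lost in no alternative, single probe sets aside. The other 11 were lost in some, and 11 of the 62 results not called were gained in some. Calls lost or gained were those named in the report and those of Klf13 in eosinophils (-0.98 with the mean of probe sets), Klf6 in eosinophils (-1.96) and basophils (1.70) and Klf7 in neutrophils (1.03) with the same setting, Klf6 in eosinophils without the first eosinophil array (-1.08), Klf10 in basophils without the second basophil array (1.03), Klf13 in SatM against marker-negative cells without the marker-negative bone marrow array (1.09), and Klf13 in lung without the M2-like bone marrow array (-1.0). Directions turned in eosinophils for Klf3 with 1 dim probe set (0.55), and with the mean of probe sets for Foxo1 (-0.12, adjusted p = 0.81) and Smad2 (0.59, adjusted p = 0.382), and the cause was not tested.

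Numbers of called genes moved as follows, and the cause was not tested unless fewer arrays entered. Spleen against bone marrow, with 11 genes, had 5 with quantile normalisation, no filter or no trend, and 7 with the mean of probe sets. Blood against bone marrow, with 12, had 5 with no filter and 21 with no trend. With no filter, SatM against marker-negative cells had 732 (of 1200), M2-like macrophages against SatM 555 (of 975) and lung against bone marrow 471 (of 1091). Without a tissue term M2-like macrophages against SatM had 579. SatM against inflammatory monocytes had 679 without the term for WT-titled arrays (1128 with it), SatM against SMP 1686 with those groups alone (3234), and SMP against cMoP 1359 with WT-titled arrays alone (4285), an alternative chosen after seeing the data.

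Leaving out 1 array gave 538 to 892 for SatM against inflammatory monocytes, 3941 to 4389 for SMP against cMoP, 2603 to 3457 for SatM against SMP, 1003 to 1833 for inflammatory monocytes against cMoP and 1824 to 3035 for the difference of the steps. It gave 3441 to 3730 for monocytes against granulocytes, 3719 to 4912 for neutrophils, 2178 to 3385 for eosinophils and 2039 to 2994 for basophils. In the panel it gave 447 to 1440 for SatM against marker-negative cells, 351 to 1312 for M2-like macrophages against SatM, 5 to 316 for spleen, 3 to 464 for blood and 367 to 2205 for lung against bone marrow. Either inflammatory monocyte array (552 and 538 without it), the second eosinophil or basophil array (2178 and 2039), the marker-negative bone marrow array (316 for spleen, 464 for blood) and the lung SatM array (2205) moved a count by over 1.5 times. In the other panel comparisons most arrays of the compared cells did. With the replicate number as a block (same-numbered arrays correlated weakly, at up to 0.23, and the labels name nothing shared), the counts ran from 1200 for SatM against inflammatory monocytes to 5015 for neutrophils, and no member's call changed. Values at the floor are bounds, and the panel has 1 array per sort and tissue.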
